A study of Mus musculus with 4 samples.

Results

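The genes described here encode the proteins of the cornified envelope and of late epidermal differentiation, measured in mouse thymic epithelial cells (TECs). They were chosen by the gene name printed for each array probe: every name beginning with Sprr or Lce, and 22 further names such as Ivl, Lor, Flg, Krtdap, Spink5 and Klk5. This gave 50 genes on 64 probes, out of 41174 probes on the array. The 13 SPRR and 15 LCE genes and the other 22 were all taken by name.

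The study asked how TECs change when Meis1, a homeobox transcription factor, is deleted. CD45-negative, EpCAM-positive TECs were sorted from mice that were 3 weeks old when given 1 mg of tamoxifen on each of 3 consecutive days, and were collected 4 days after the treatment. Meis1-CKO mice were K14-CreERT2 Meis1fl/fl, and the controls were K14-CreERT2 mice with 1 floxed and 1 normal Meis1 allele, which the labels call WT. There were 2 pools of 6 mice per genotype, each hybridised to 1 single-colour (Cy3) array. Both genotypes therefore carried the Cre transgene, at least 1 floxed allele and the tamoxifen exposure, and no array of mice without them was used here. The K14 promoter, of the keratin 14 gene, drives the recombinase, so deletion is directed at cells in which that promoter has been active, and the share of sorted cells that lost Meis1 was not measured here. The Meis1 probe read -0.12 in control 1, -0.91 in control 2, -0.44 in Meis1-CKO 1 and -2.08 in Meis1-CKO 2. It checks nothing, because the position of the probe relative to the floxed part of the gene is not given in the labels.

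Control 1 and Meis1-CKO 1 shared a slide and a scan (slide 1), and control 2 and Meis1-CKO 2 shared another (slide 2). Levels are log2 signals relative to the 75th percentile of each array, so that 0 is the 75th percentile itself. The 75th percentile of the signal ran from 93.2 to 152 over the arrays, and 58.6% to 63.6% of spots were well above background. Meis1-CKO 2 stood apart: its correlation with the other arrays over all features ran from 0.857 to 0.885, against 0.936 to 0.943 among the other 3. All 15 TEC markers, among them Epcam, Foxn1, Krt5 and Krt14, were above background on all 4 arrays, as the label of the sorted cells implies. Markers of other cells differed between arrays. Over the 11 tested of 12 markers of myeloid and dendritic cells the median level was -0.58 and -0.50 in control 1 and 2, -0.75 in Meis1-CKO 1 and 1.95 in Meis1-CKO 2, and 8, 10, 11 and 12 of the 12 were above background on these arrays. Of these, Fcgr1 was not above background on either control array.

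The cornified envelope is a shell of cross-linked protein that replaces the plasma membrane of a dying keratinocyte. Loricrin, involucrin, small proline-rich (SPRR) and late cornified envelope (LCE) proteins are joined by transglutaminases, filaggrin bundles the keratin filaments, and lipoxygenases, caspase 14, kallikreins and their inhibitor complete and later shed the cornified layer. In the thymus, medullary TECs can pass through a comparable program late in their maturation and form cornified bodies, and single medullary TECs also transcribe tissue genes under the control of Aire.

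The tested cornified envelope genes did not read as 1 block. The 8 tested SPRR2 genes read lower in Meis1-CKO than in the control on both slides, as 26.5% of all features did. For Sprr2a this held for 1 of its probes. Of the 31 other genes, 21 read higher on slide 1 and lower on slide 2, against 29.8% of all features. In 13 genes both arrays of slide 1 lay above both arrays of slide 2, with slide means at least 2-fold apart. The share of all features was 7.01%, and only 4 of the 13 also differed at least 2-fold between the controls. None of the 39 tested genes passed the test between genotypes (limma, adjusted p = 0.9999 for each), as none of all 16812 features did (0%). At an unadjusted p under 0.05 there were 467 features (2.78%) and none of the 39. In sorted pools, fewer cells of a type and less RNA per cell cannot be told apart. Nothing in the labels says how the pools were drawn beyond 2 independent experiments, so the p-values measure the spread between these 4 arrays.

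Of the 50 genes, 36 were above background on all 4 arrays, 2 on 3 arrays, 4 on 2 arrays, 4 on 1 array and 4 on none. Meis1-CKO 1 showed 45 of them, against 39 in control 1, 40 in control 2 and 38 in Meis1-CKO 2. Over all spots the share above background was also highest in Meis1-CKO 1, at 63.6%. It was 58.6% in control 1, 61.4% in control 2 and 61.3% in Meis1-CKO 2. A gene was tested if a probe for it was above background on the full pair of arrays of a genotype, which left 39. The other 11 were Sprr3, Sprr4, Sprr2h, Lce1a2, Lce1c, Lce1d, Lce1e, Lce1g, Lce1i, Lce3f and Cdsn, the gene of corneodesmosin, which holds corneocytes together. Sprr2h, Lce1e and Cdsn were above background on Meis1-CKO 1 alone, and Lce3f on control 1 alone. Sprr3 and Sprr4 were above background on control 2 and Meis1-CKO 1. Lce1a2, Lce1c, Lce1d and Lce1i were not well above background on any array. Outside the 34 genes on chromosome 3, 7 genes lie on chromosome 7 (Klk5, Klk7, Krtdap, Sbsn, Dmkn, Cnfn and Lypd3) and 9 elsewhere: Alox12b and Aloxe3 on chromosome 11, Calm4 and Calml3 on 13, and Casp14, Tgm1, Tgm3, Cdsn and Spink5 on 10, 14, 2, 17 and 18. A filter on signal lets in genes seen in 1 genotype, so the counts that follow are of the 39 tested genes and not of all 50.

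**Figure D1:**
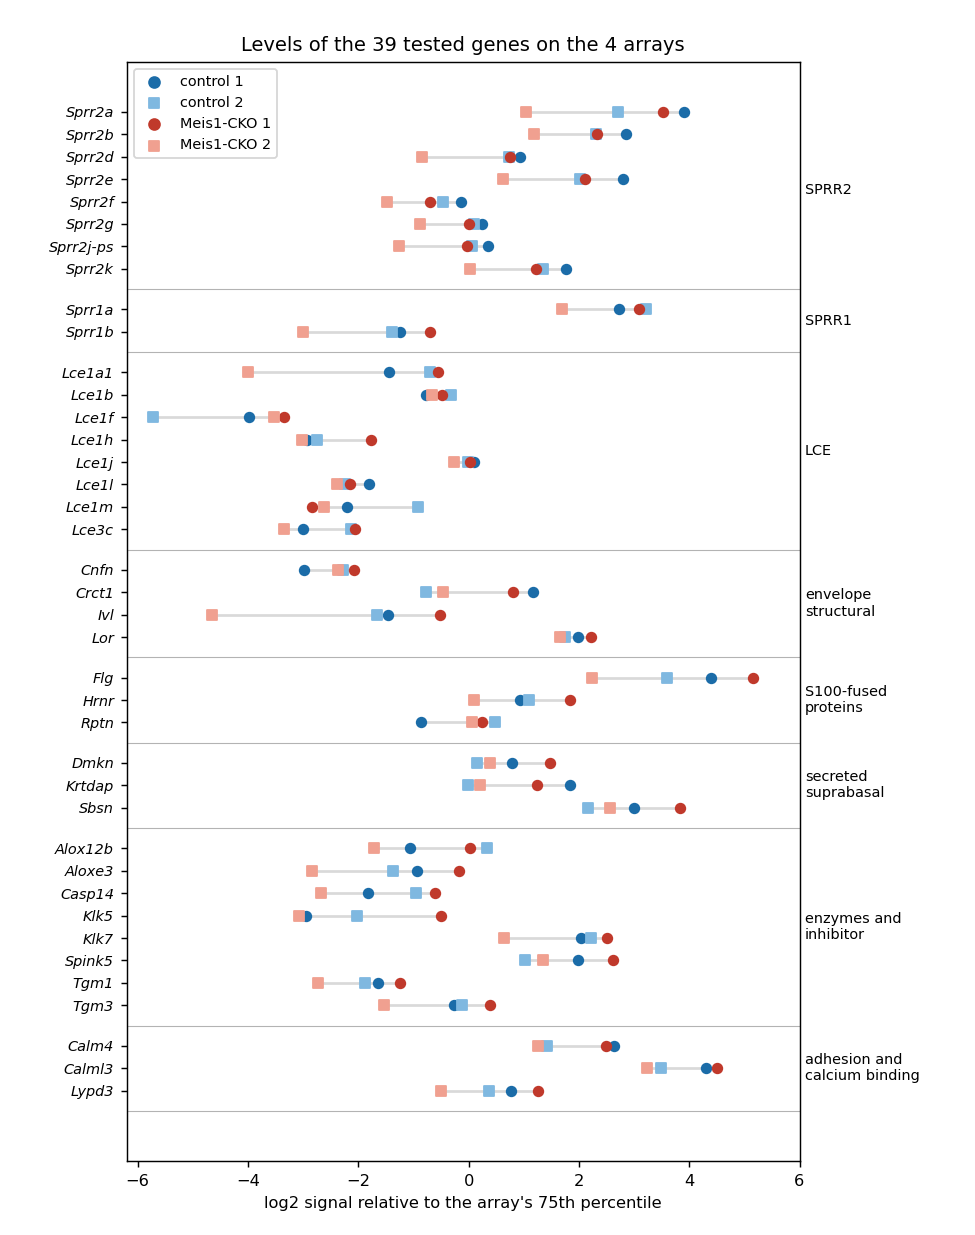
Each row is 1 of the 39 tested genes and each point its level on 1 array (log2 signal relative to the 75th percentile of that array). Circles are slide 1, squares slide 2, blue control and red Meis1-CKO; no error bar is drawn because all 4 values are shown. The SPRR2 genes have Meis1-CKO 2 lowest, while Crct1, Krtdap and Calm4 split by slide.

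The SPRR2 genes, which encode short cross-linked precursors built from repeated proline-rich peptides, make up 8 of the 10 tested SPRR genes. The probes of 34 of the 50 genes lie between positions 91884206 and 93202723 of chromosome 3 (mm9), a stretch of 1.32 Mb known as the epidermal differentiation complex, and the SPRR2 probes lie side by side within it. The 60-base probes are shown because several read nearly the same repeat, which limits how far the genes can be told apart. Capitals mark the longest run that a probe shares with a probe of another SPRR2 gene.
Sprr2b: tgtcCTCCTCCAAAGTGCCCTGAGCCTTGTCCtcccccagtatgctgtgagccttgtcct
Sprr2e: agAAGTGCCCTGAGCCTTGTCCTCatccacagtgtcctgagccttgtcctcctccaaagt
Sprr2g: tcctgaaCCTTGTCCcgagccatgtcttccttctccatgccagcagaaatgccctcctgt
Sprr2j-ps: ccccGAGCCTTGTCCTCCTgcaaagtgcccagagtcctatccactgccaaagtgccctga
Sprr2k: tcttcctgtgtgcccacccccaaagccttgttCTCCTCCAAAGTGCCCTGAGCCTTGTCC
The probes lie on mm9 at chr3:92121449-92121508 (Sprr2b), chr3:92156847-92156906 (Sprr2e), chr3:92178685-92178744 (Sprr2g), chr3:92222836-92222895 (Sprr2j-ps, annotated as a pseudogene) and chr3:92237308-92237367 (Sprr2k). Sprr2b and Sprr2k share a run of 28 bases, Sprr2e shares 22 with Sprr2b, Sprr2j-ps shares 15 with Sprr2e, and Sprr2g shares 8 with Sprr2k. A run of 20 bases, AAGTGCCCTGAGCCTTGTCC, stands in the Sprr2b, Sprr2e and Sprr2k probes alike. The probe for Sprr2e also lists a transcript of Sprr2i, and that for Sprr2a lists Sprr2a1 and Sprr2a2. The probes of Sprr2a, Sprr2f and Sprr2g share no run over 8 bases, and that of Sprr2d none over 10, with another SPRR2 probe. Probes were compared with probes and not with transcripts, so this does not show that these probes each read a single gene. Signals of Sprr2b, Sprr2e, Sprr2j-ps and Sprr2k are uncertain as to the paralog, and they are not 4 independent readings.

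Sprr2a, the best known of the family and an injury-responsive gene in several epithelia, read 3.91 in control 1, 2.71 in control 2, 3.53 in Meis1-CKO 1 and 1.05 in Meis1-CKO 2. Control 1 and Meis1-CKO 1 were both high, Meis1-CKO 2 was lowest, and the genotypes overlapped. The difference (Meis1-CKO minus control) was -1.02 ± 0.93 (SE, 2 arrays per genotype), with -0.38 on slide 1 and -1.66 on slide 2. A dimmer Sprr2a probe read 2.47 in control 1, 2.31 in control 2, 2.25 in Meis1-CKO 1 and 2.76 in Meis1-CKO 2, so the Sprr2a probes disagree on Meis1-CKO 2. Sprr2e read 2.81 in control 1, 2.02 in control 2, 2.10 in Meis1-CKO 1 and 0.62 in Meis1-CKO 2. Its lowest array was Meis1-CKO 2, and Meis1-CKO 1 lay between the controls, with a difference of -1.05 ± 0.66 (SE).

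Sprr2b read 2.85 in control 1, 2.32 in control 2, 2.32 in Meis1-CKO 1 and 1.19 in Meis1-CKO 2. Sprr2d read 0.92 in control 1, 0.74 in control 2, 0.75 in Meis1-CKO 1 and -0.84 in Meis1-CKO 2. In both, Meis1-CKO 1 lay at the level of control 2 and Meis1-CKO 2 lay below all other arrays. Sprr2k read 1.76 in control 1, 1.34 in control 2, 1.23 in Meis1-CKO 1 and 0.02 in Meis1-CKO 2. Sprr2j-ps read 0.35 in control 1, 0.06 in control 2, -0.02 in Meis1-CKO 1 and -1.26 in Meis1-CKO 2. Both had control 1 highest and Meis1-CKO 2 lowest, and neither had overlapping genotypes. Sprr2f read -0.13 in control 1, -0.46 in control 2, -0.71 in Meis1-CKO 1 and -1.47 in Meis1-CKO 2, and Sprr2g read 0.25 in control 1, 0.09 in control 2, 0.00 in Meis1-CKO 1 and -0.88 in Meis1-CKO 2. The genotypes did not overlap for these 2 genes either, but the gap between control 2 and Meis1-CKO 1 was small beside the drop to Meis1-CKO 2.

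All 8 tested SPRR2 genes were lower in Meis1-CKO within both slides, an event met by 26.5% of all features. For Sprr2a this held for the brighter probe alone, as the dimmer one differed by -0.22 on slide 1 and 0.45 on slide 2. The untested Sprr2h differed by 0.64 and 0.17. Several of these probes share runs of bases, so the 8 genes are not independent readings. The median difference of the 8 tested genes was -0.86, against -0.05 over all features. It was -0.45 on slide 1 and -1.32 on slide 2, against 0.00 and -0.12. In 4 of them (Sprr2f, Sprr2g, Sprr2j-ps and Sprr2k) both Meis1-CKO arrays lay below both controls, as in 14.4% of all features. Of all 39 tested genes, SPRR2 included, 12 were lower within both slides, beside the same 26.5%. In 5 of the 39 both Meis1-CKO arrays lay below both controls, beside the same 14.4%. The standard errors of the 8 differences ran from 0.49 for Sprr2f to 0.93 for Sprr2a, beside differences from -0.61 for Sprr2g to -1.05 for Sprr2e. Without Meis1-CKO 2, 7 of the 8 stayed lower, by 0.08 to 0.41 on the log2 scale, and Sprr2a read 0.22 higher.

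**Figure D2:**
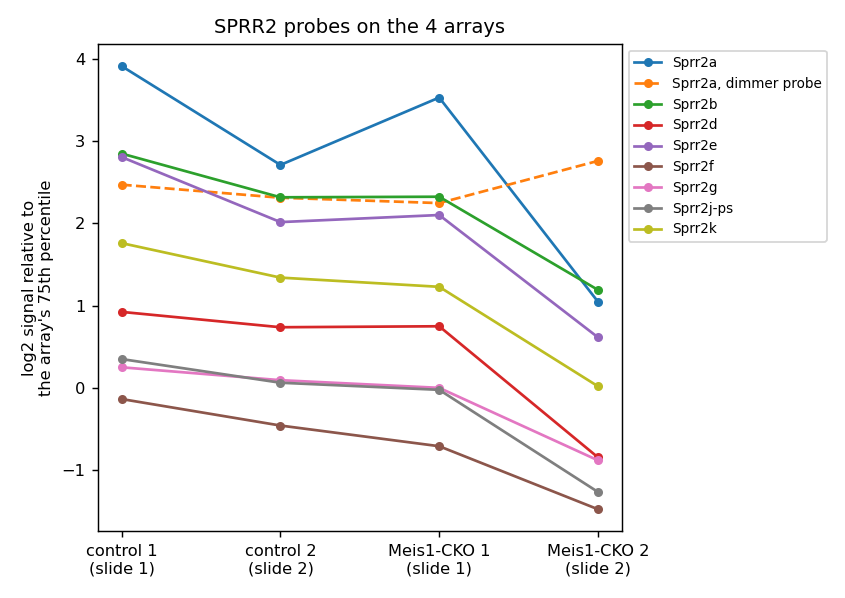
Levels of the SPRR2 probes (log2 signal relative to the 75th percentile, y axis) on the 4 arrays (x axis), with the lines only joining the points of 1 probe. The 8 probes that stand for their genes are lowest on Meis1-CKO 2, and the dashed dimmer Sprr2a probe is highest there, at 2.76.

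Sprr2d, Sprr2e, Sprr2f and Sprr2k had control 1 highest and Meis1-CKO 2 lowest. The genotypes overlapped for Sprr2d and Sprr2e and did not for Sprr2f and Sprr2k. A link between motifs and levels was not tested. The bases before the start of these 4 genes are shown because short motifs stand at like places in them. These are the 250 bases before the RefSeq start, on the plus strand of GRCm38.p6, at chr3:92338890-92339139 (Sprr2d), chr3:92351893-92352142 (Sprr2e), chr3:92364937-92365186 (Sprr2f) and chr3:92432332-92432581 (Sprr2k). Capitals mark TGANTCA (the AP-1 motif) and TGACAG (the motif of MEIS factors) on either strand, and TATAA (the TATA box) on the gene's strand.
Sprr2d: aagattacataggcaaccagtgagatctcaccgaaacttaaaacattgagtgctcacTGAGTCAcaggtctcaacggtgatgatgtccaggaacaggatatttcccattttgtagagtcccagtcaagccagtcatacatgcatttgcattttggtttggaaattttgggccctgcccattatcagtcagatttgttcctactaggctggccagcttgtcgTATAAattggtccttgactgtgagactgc
Sprr2e: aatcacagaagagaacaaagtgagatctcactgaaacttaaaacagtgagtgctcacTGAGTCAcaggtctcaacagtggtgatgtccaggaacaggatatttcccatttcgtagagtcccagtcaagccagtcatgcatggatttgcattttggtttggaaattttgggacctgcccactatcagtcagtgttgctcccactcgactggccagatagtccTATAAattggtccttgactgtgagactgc
Sprr2f: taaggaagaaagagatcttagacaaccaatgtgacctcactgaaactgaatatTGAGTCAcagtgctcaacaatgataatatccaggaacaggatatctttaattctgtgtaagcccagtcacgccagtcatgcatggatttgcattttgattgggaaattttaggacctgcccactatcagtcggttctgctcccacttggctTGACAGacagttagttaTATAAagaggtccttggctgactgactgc
Sprr2k: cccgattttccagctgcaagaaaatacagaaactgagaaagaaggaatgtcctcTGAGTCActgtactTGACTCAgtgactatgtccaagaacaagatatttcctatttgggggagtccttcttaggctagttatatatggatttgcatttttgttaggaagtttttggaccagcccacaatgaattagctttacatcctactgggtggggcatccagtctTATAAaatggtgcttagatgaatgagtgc
In all 4 windows TATAA began 29 bases before the start. TGANTCA began 193 bases before it in Sprr2d and Sprr2e, 197 in Sprr2f and both 196 and 182 in Sprr2k. TGACAG stood in Sprr2f alone, 46 bases before the start. Position by position, Sprr2d and Sprr2e were identical at 220 of 250 bases (88.0%), and the other 5 pairs at 27.6% to 38.0%, without gaps allowed for.

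Windows were found for 43 of the 50 genes, 49 windows in all, and motifs were counted on both strands, each on its own and so also where motifs overlap. TGANTCA stood in 6 of 9 SPRR2 windows, in none of 14 LCE windows and in 11 of 26 windows of the other genes, among them Ivl, Flg, Lor, Krtdap and Sbsn, against 6.7% of all 32851 windows. TATAA stood in 6 of 9 SPRR2 windows, 3 of 14 LCE windows and 13 of 26 others, against 22.8% of all. TGACAG stood in 1 of 9 SPRR2 windows, 7 of 14 LCE windows and 8 of 26 others, against 15.9%. AACCNGTT, the motif of grainyhead-like factors, stood in 1 of 49 windows (Rptn), against 1.8%. Neighbouring genes of a family arose by duplication, so their windows are not independent, and a match is a run of letters and not a shown binding site.

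The SPRR1 genes, cross-linked like SPRR2 and raised in wounded epidermis, read higher in Meis1-CKO on slide 1, where the SPRR2 genes read lower. Sprr1a read 2.73 in control 1, 3.22 in control 2, 3.09 in Meis1-CKO 1 and 1.69 in Meis1-CKO 2. It was at a like level on 3 arrays and lower on Meis1-CKO 2, and the difference was -0.59 ± 0.61 (SE). Sprr1b read -1.24 in control 1, -1.39 in control 2, -0.70 in Meis1-CKO 1 and -3.01 in Meis1-CKO 2. Meis1-CKO 1 was its highest array and Meis1-CKO 2 its lowest, so the genotypes overlapped. Whether SPRR1 and SPRR2 differ in response was not tested.

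The LCE genes, which encode small envelope proteins deposited late in cornification, had 8 of 15 members tested. Lce1j read 0.10 in control 1, -0.01 in control 2, 0.02 in Meis1-CKO 1 and -0.26 in Meis1-CKO 2. Lce1b read -0.78 in control 1, -0.33 in control 2, -0.48 in Meis1-CKO 1 and -0.66 in Meis1-CKO 2. These 2 had a narrow spread over the arrays and overlapping genotypes, with differences of -0.16 ± 0.43 and -0.01 ± 0.45 (SE). Lce1l read -1.81 in control 1, -2.25 in control 2, -2.14 in Meis1-CKO 1 and -2.39 in Meis1-CKO 2, and it too overlapped between genotypes.

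Lce1m read -2.21 in control 1, -0.91 in control 2, -2.84 in Meis1-CKO 1 and -2.62 in Meis1-CKO 2. Both Meis1-CKO arrays lay below both controls, and the difference of -1.17 ± 0.58 (SE) made it the single tested gene that was separated and at least 2-fold lower, beside 3.95% of all features. Lce1f read -3.98 in control 1, -5.72 in control 2, -3.35 in Meis1-CKO 1 and -3.53 in Meis1-CKO 2, and was not well above background on either control array. By its measured values it was the 1 gene that counted as separated and at least 2-fold higher, beside 3.34% of all features, but it was tested only through its Meis1-CKO arrays and no excess of that size is shown: no fold is given, because the lowest signal counted as above background on the control arrays was no dimmer than its mean in Meis1-CKO. Among genes above background on all 4 arrays none met the rule for higher genes. Under a background correction by normexp neither Lce1m nor Lce1f reached a 2-fold difference.

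Lce1a1 read -1.45 in control 1, -0.71 in control 2, -0.55 in Meis1-CKO 1 and -3.996 in Meis1-CKO 2. It was not well above background on Meis1-CKO 2, and that 1 array set its difference of -1.20 ± 1.14 (SE), which was 0.53 without it. Lce1h read -2.93 in control 1, -2.76 in control 2, -1.77 in Meis1-CKO 1 and -3.02 in Meis1-CKO 2, with Meis1-CKO 1 high and the other 3 arrays alike. Lce3c read -3.01 in control 1, -2.13 in control 2, -2.07 in Meis1-CKO 1 and -3.35 in Meis1-CKO 2, with control 2 and Meis1-CKO 1 high and the other arrays low. Dimmer probes of Lce1j read -2.17 in control 1, -1.43 in control 2, -1.80 in Meis1-CKO 1 and -1.98 in Meis1-CKO 2, and of Lce3c -3.53 in control 1, -2.22 in control 2, -1.75 in Meis1-CKO 1 and -3.36 in Meis1-CKO 2, the latter again high in Meis1-CKO 1. A dimmer Lce1b probe was not well above background on any array, and the 2 probes of the untested Lce1g were each above background on 1 Meis1-CKO array, but not the same one. Of the 8 tested LCE genes, 5 were higher on slide 1 and 7 were lower on slide 2, with a median difference of -0.15.

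Among the genes of the other structural proteins, Lor had a narrow spread over the arrays and Ivl a wide one. Lor, which encodes the most abundant envelope protein of the epidermis, read 1.99 in control 1, 1.74 in control 2, 2.22 in Meis1-CKO 1 and 1.66 in Meis1-CKO 2. All 4 arrays lay close together, and the difference was 0.08 ± 0.46 (SE). Ivl, the gene of the early scaffold protein involucrin, read -1.46 in control 1, -1.67 in control 2, -0.53 in Meis1-CKO 1 and -4.65 in Meis1-CKO 2. Meis1-CKO 1 was highest, and on Meis1-CKO 2 the probe was not well above background.

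The difference of Ivl was -1.03 ± 1.31 (SE), with 0.93 on slide 1 and -2.98 on slide 2. Left with control 1, control 2 and Meis1-CKO 2, it was -3.09 with a limma adjusted p of 0.0453, among 317 features called, and this rests on 1 Meis1-CKO array assumed to vary like the controls. Cnfn, the gene of the envelope protein cornifelin, read -2.99 in control 1, -2.28 in control 2, -2.08 in Meis1-CKO 1 and -2.37 in Meis1-CKO 2. Its lowest array was control 1 and its genotypes overlapped. Crct1, a cysteine-rich protein gene of the epidermal differentiation complex, read 1.16 in control 1, -0.78 in control 2, 0.80 in Meis1-CKO 1 and -0.46 in Meis1-CKO 2. Here both arrays of slide 1 were high and both of slide 2 low, in either genotype.

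The S100-fused genes encode large repeat proteins of the keratohyalin granules. Flg, the filaggrin precursor gene, read 4.39 in control 1, 3.60 in control 2, 5.15 in Meis1-CKO 1 and 2.24 in Meis1-CKO 2. Meis1-CKO 1 was highest and Meis1-CKO 2 lowest, and the difference was -0.30 ± 1.00 (SE), made of 0.76 on slide 1 and -1.36 on slide 2. Hrnr, the gene of the filaggrin-like protein hornerin, read 0.93 in control 1, 1.10 in control 2, 1.84 in Meis1-CKO 1 and 0.09 in Meis1-CKO 2, in the same order of extremes. Rptn, the gene of repetin, read -0.87 in control 1, 0.48 in control 2, 0.24 in Meis1-CKO 1 and 0.07 in Meis1-CKO 2, with control 1 low and the other 3 arrays alike. A dimmer Flg probe read -2.30 in control 1, -3.18 in control 2, -2.08 in Meis1-CKO 1 and -3.55 in Meis1-CKO 2, and was above background on the arrays of slide 1 alone. A dimmer Hrnr probe was above background on Meis1-CKO 1 alone.

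Krtdap, Sbsn and Dmkn lie side by side on chromosome 7 and encode small proteins secreted by suprabasal keratinocytes. Sbsn, the suprabasin gene, read 3.00 in control 1, 2.16 in control 2, 3.84 in Meis1-CKO 1 and 2.56 in Meis1-CKO 2. Dmkn, the dermokine gene, read 0.79 in control 1, 0.16 in control 2, 1.48 in Meis1-CKO 1 and 0.39 in Meis1-CKO 2. Both were higher in Meis1-CKO on each slide, by 0.84 and 0.40 for Sbsn and 0.69 and 0.24 for Dmkn, but the slides lay further apart than the genotypes. Krtdap read 1.83 in control 1, -0.01 in control 2, 1.24 in Meis1-CKO 1 and 0.20 in Meis1-CKO 2. Its slide 1 arrays were high and its slide 2 arrays low, and a dimmer Krtdap probe split by slide too, at 1.29 in control 1, -0.14 in control 2, 0.72 in Meis1-CKO 1 and -0.39 in Meis1-CKO 2. The Krtdap probes disagree on slide 2, where the brighter read higher in Meis1-CKO and the dimmer lower. A dimmer Dmkn probe read -0.08 in control 1, -0.85 in control 2, 0.28 in Meis1-CKO 1 and -1.77 in Meis1-CKO 2, and a dimmer Sbsn probe 1.43 in control 1, 1.14 in control 2, 1.98 in Meis1-CKO 1 and 1.07 in Meis1-CKO 2. The dimmer Dmkn probe had Meis1-CKO 2 lowest, unlike the brighter one. On slide 2 the dimmer probes of both genes read lower in Meis1-CKO, with differences of -0.07 for Sbsn and -0.92 for Dmkn. The higher reading on each slide thus held for the brighter probes alone.

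The genes of the 7 cornification enzymes and of an inhibitor of the kallikreins among them all read higher in Meis1-CKO on slide 1. The 7 enzyme genes read lower on slide 2. Tgm1, the membrane-bound transglutaminase that builds the envelope, read -1.64 in control 1, -1.87 in control 2, -1.24 in Meis1-CKO 1 and -2.73 in Meis1-CKO 2. Tgm3, a transglutaminase of the late layers, read -0.27 in control 1, -0.12 in control 2, 0.38 in Meis1-CKO 1 and -1.53 in Meis1-CKO 2. Each had Meis1-CKO 1 highest and Meis1-CKO 2 lowest. Casp14, a caspase that takes part in filaggrin breakdown, read -1.82 in control 1, -0.95 in control 2, -0.61 in Meis1-CKO 1 and -2.69 in Meis1-CKO 2, and followed the same order of extremes.

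Klk5, a kallikrein protease of desquamation, read -2.95 in control 1, -2.02 in control 2, -0.50 in Meis1-CKO 1 and -3.07 in Meis1-CKO 2. Meis1-CKO 1 stood well above the other 3 arrays, 2.45 above control 1, while on slide 2 the difference was -1.05. Klk7, the other main desquamating kallikrein, read 2.03 in control 1, 2.22 in control 2, 2.50 in Meis1-CKO 1 and 0.65 in Meis1-CKO 2, and its 2 dimmer probes read 1.24 in control 1, 0.47 in control 2, 1.59 in Meis1-CKO 1 and -0.44 in Meis1-CKO 2, and 1.56 in control 1, 1.45 in control 2, 2.04 in Meis1-CKO 1 and 0.43 in Meis1-CKO 2. All 3 Klk7 probes had Meis1-CKO 1 highest and Meis1-CKO 2 lowest.

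Alox12b and Aloxe3 encode lipoxygenases that act in turn on barrier lipids. Alox12b read -1.06 in control 1, 0.33 in control 2, 0.03 in Meis1-CKO 1 and -1.73 in Meis1-CKO 2. Aloxe3 read -0.94 in control 1, -1.37 in control 2, -0.18 in Meis1-CKO 1 and -2.84 in Meis1-CKO 2. Both had Meis1-CKO 2 lowest, and their genotypes overlapped. A dimmer Alox12b probe was above background on Meis1-CKO 1 alone. Spink5, on chromosome 18, encodes the inhibitor LEKTI of these kallikreins and was the exception among the enzyme group: it read 1.98 in control 1, 1.02 in control 2, 2.62 in Meis1-CKO 1 and 1.35 in Meis1-CKO 2, higher in Meis1-CKO within both slides but highest on the arrays of slide 1.

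Calcium-binding and surface protein genes mostly followed the slide. Calml3, a calmodulin-like protein gene of stratified epithelia, read 4.31 in control 1, 3.50 in control 2, 4.51 in Meis1-CKO 1 and 3.23 in Meis1-CKO 2. Calm4, of the same family and also on chromosome 13, read 2.63 in control 1, 1.43 in control 2, 2.48 in Meis1-CKO 1 and 1.25 in Meis1-CKO 2. Both split by slide and not by genotype, with differences of -0.03 ± 0.62 and -0.16 ± 0.67 (SE). Lypd3, the gene of a membrane-anchored surface protein of suprabasal cells, read 0.77 in control 1, 0.38 in control 2, 1.25 in Meis1-CKO 1 and -0.50 in Meis1-CKO 2, highest on Meis1-CKO 1 and lowest on Meis1-CKO 2. A dimmer Calm4 probe read -1.17 in control 1, -1.93 in control 2, -0.88 in Meis1-CKO 1 and -1.79 in Meis1-CKO 2, again in the order of the slides.

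Over the 39 tested genes the median difference was -0.24, made of 0.47 on slide 1 and -1.02 on slide 2, against -0.05, 0.00 and -0.12 over all features. On slide 1, 25 were higher and 14 lower. On slide 2, 6 were higher and 33 lower. The pattern of higher on slide 1 and lower on slide 2 was met by 21 of the 39, against 29.8% of all features, and all 21 were among the 31 genes outside SPRR2. Another 4 (Dmkn, Lce1f, Sbsn and Spink5) were higher on both slides, against 20.4% of all features, and 2 (Crct1 and Krtdap) were lower on slide 1 and higher on slide 2, against 23.3%. For Dmkn, Sbsn and Krtdap this held for the brighter probe alone. Lce1f was tested only through its Meis1-CKO arrays, so the filter favoured a higher reading there. Meis1-CKO 2 was the lowest array for 29 genes (36.9% of all features) and Meis1-CKO 1 the highest for 21 (21.7%). Under normexp the median difference over the 39 genes was 0.20 on slide 1 and -0.57 on slide 2. Over all features it was then -0.02 and -0.08.

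At least a 2-fold excess in Meis1-CKO was seen on slide 1 for 5 genes (Alox12b, Casp14, Klk5, Lce1h and Rptn), against 8.55% of all features. At least a 2-fold deficit was seen on slide 2 for 21 genes, against 17.1% of all features, and Alox12b, Casp14 and Klk5 met both. Among the 21, Ivl and Lce1a1 were not well above background on Meis1-CKO 2. They were tested only through the control pair, so the filter favoured a deficit there. Leaving out Meis1-CKO 2 turned the median difference to 0.50, and leaving out Meis1-CKO 1 turned it to -1.05. Cnfn, Lce1f, Lce1j, Lce1l, Lce1m and the SPRR2 genes other than Sprr2a kept their direction with any 1 array left out. The other 27 genes did not. For Lce1f the filter favoured that direction, because it was not well above background on either control array.

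**Figure D3:**
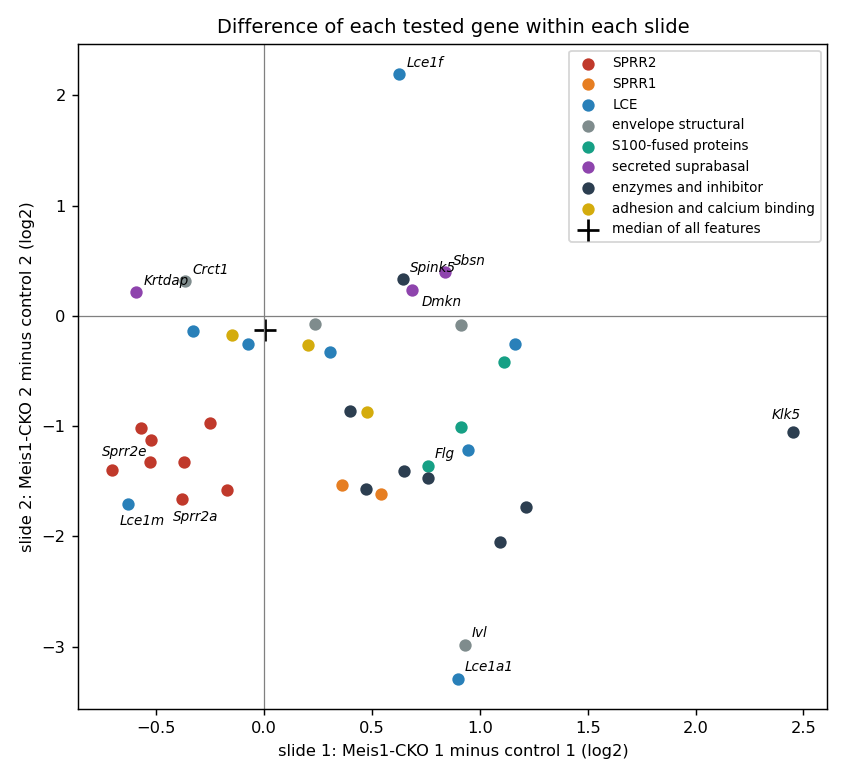
Each point is 1 tested gene, placed by its Meis1-CKO minus control difference (log2) on slide 1 (x axis) and slide 2 (y axis), coloured by role; the cross is the median of all features. The 8 SPRR2 genes lie in the lower left part, lower on both slides, and 21 other genes lie in the lower right.

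Both arrays of slide 1 lay above both arrays of slide 2, with slide means at least 2-fold apart, for 13 of the 39 genes, against 7.01% of all features, and none lay as far the other way, against 5.99%. The 13 were Aloxe3, Calm4, Calml3, Crct1, Flg, Ivl, Krtdap, Lypd3, Sbsn, Spink5, Sprr1b, Sprr2a and Sprr2e. All 13 differed by at least 2-fold between the Meis1-CKO arrays, but only Calm4, Crct1, Krtdap and Sprr2a (4 of 13) did so between the controls as well. Between the controls the other 9 differed by 0.15 (Sprr1b) to 0.96 (Spink5) on the log2 scale. The excess of the slide 1 mean ran from 1.04 in Calml3 to 1.86 in Flg over 12 of the genes, and that of Ivl rests on Meis1-CKO 2, where its probe was not well above background. Slide, scan and replicate number coincide, and the pools of 1 number may also come from 1 experiment, so these cannot be told apart. Under normexp 5 of the 39 met this rule, against 1.42% of all features.

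The levels of marker genes moved between the arrays as well. The 5 tested of 7 fibroblast markers had medians of 0.40 and 0.27 in control 1 and 2, 0.99 in Meis1-CKO 1 and -1.24 in Meis1-CKO 2, and 7, 5, 7 and 5 of the 7 were above background. The 11 tested of 12 thymocyte markers had medians of 0.82, -0.12, -1.77 and 0.90 in the same order, with 11 of 12 above background on each array. TEC markers had medians of 3.13, 3.96, 3.03 and 2.92. On slide 2, 14 of the 15 TEC markers read lower in Meis1-CKO, with a median difference of -0.70. Meis1-CKO 2 was the lowest array for 12 of the 15, against 36.9% of all features. The high median of the myeloid markers and the low medians of the fibroblast and TEC markers thus fall on Meis1-CKO 2. The lower reading of 33 of the 39 genes on slide 2 falls on the same array. The part of other cells in these results was not tested.

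**Figure D4:**
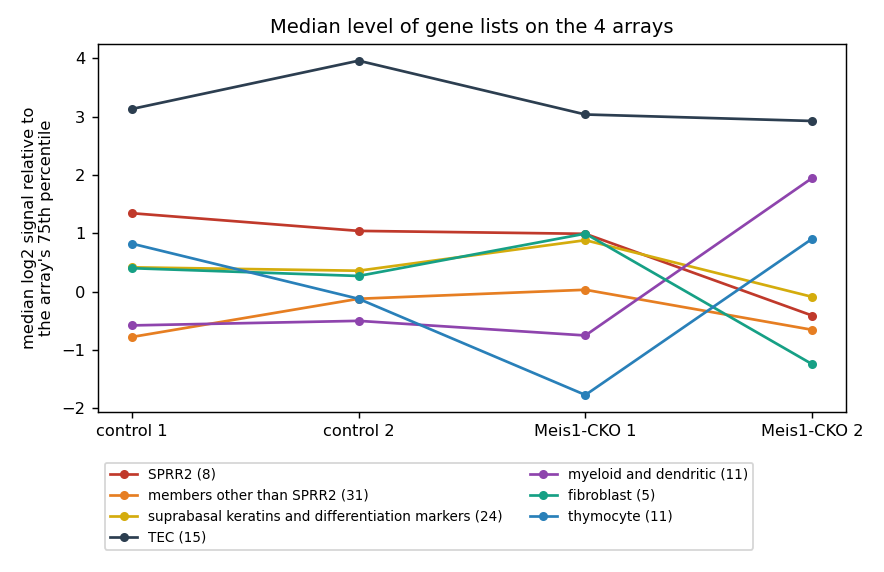
Median level (log2 signal relative to the 75th percentile, y axis) of gene lists on the 4 arrays (x axis), with the number of tested genes in brackets and lines only joining the points of 1 list. The SPRR2 genes fall to -0.41 and the fibroblast markers to -1.24 on Meis1-CKO 2, where myeloid and dendritic markers reach 1.95.

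The lists of pathway genes showed how the rest of the program read. Of 30 listed regulators of epidermal differentiation, 26 were tested and none passed in either direction (limma adjusted), with a median difference of -0.12, made of 0.24 on slide 1 and -0.49 on slide 2. Tfap2c, an AP-2 factor gene of keratinocytes, read 0.82 in control 1, 0.73 in control 2, 0.26 in Meis1-CKO 1 and -0.97 in Meis1-CKO 2. Its genotypes did not overlap, and the difference was -1.13 ± 0.56 (SE). Klf4, needed for the skin barrier, read 3.39 in control 1, 2.87 in control 2, 3.89 in Meis1-CKO 1 and 2.92 in Meis1-CKO 2, and Trp63, the p63 gene of stratified epithelia, read 4.66 in control 1, 3.96 in control 2, 4.70 in Meis1-CKO 1 and 3.71 in Meis1-CKO 2. Both overlapped between genotypes and were higher on the arrays of slide 1. Pou2f3, which marks tuft-like cells as well as suprabasal keratinocytes, read -0.73 in control 1, -1.91 in control 2, -1.67 in Meis1-CKO 1 and -3.43 in Meis1-CKO 2. It was above background on only 1 Meis1-CKO array.

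Ehf, an epithelial ETS factor gene, read 1.28 in control 1, 0.81 in control 2, 1.00 in Meis1-CKO 1 and -0.18 in Meis1-CKO 2, and Tfap2a, another AP-2 gene, read -1.91 in control 1, -2.59 in control 2, -3.18 in Meis1-CKO 1 and -2.68 in Meis1-CKO 2. The genotypes overlapped for Ehf and did not for Tfap2a. Of the 26 regulators tested, 2 lay lower in Meis1-CKO without overlap and 0 higher, against 14.4% and 11.1% of all features. Of 31 suprabasal keratins and differentiation markers, 24 were tested and none passed, with a median difference of -0.16 (0.22 on slide 1 and -0.61 on slide 2). Krt10, the suprabasal keratin, read 3.00 in control 1, 1.40 in control 2, 3.07 in Meis1-CKO 1 and 0.34 in Meis1-CKO 2, so the slide 1 arrays were high and Meis1-CKO 2 was lowest. Krt1, its partner, read 0.01 in control 1, -0.60 in control 2, -0.25 in Meis1-CKO 1 and -1.14 in Meis1-CKO 2. Krt79 read -1.49 in control 1, -1.64 in control 2, -1.92 in Meis1-CKO 1 and -3.07 in Meis1-CKO 2, and Serpinb12 read 1.80 in control 1, 2.26 in control 2, 1.73 in Meis1-CKO 1 and 0.18 in Meis1-CKO 2. Both lay lower in Meis1-CKO without overlap. Ly6d read 1.38 in control 1, 1.46 in control 2, 2.24 in Meis1-CKO 1 and 1.51 in Meis1-CKO 2, above the controls on both Meis1-CKO arrays. Of these 24 markers, 2 lay lower in Meis1-CKO without overlap and 1 higher, against 14.4% and 11.1% of all features.

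Krt6a, a stress keratin gene, read -3.88 in control 1, -2.94 in control 2, -3.14 in Meis1-CKO 1 and -2.71 in Meis1-CKO 2, and was above background on 1 control array. The basal keratins Krt5 and Krt14 differed by -0.76 ± 0.50 and -0.76 ± 0.60 (SE). Aire, the regulator of ectopic tissue genes, read 2.50 in control 1, 4.59 in control 2, 3.03 in Meis1-CKO 1 and 2.37 in Meis1-CKO 2, highest in control 2. Foxn1, the thymic epithelial master regulator, read 1.02 in control 1, 1.21 in control 2, 0.85 in Meis1-CKO 1 and -0.69 in Meis1-CKO 2, with Meis1-CKO 2 far the lowest.

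Of 22 genes of the envelope scaffold and corneodesmosome, 20 were tested and none passed, with a median difference of -0.11 (0.30 on slide 1 and -0.46 on slide 2). Tgm5, a further epidermal transglutaminase, read -1.08 in control 1, -0.84 in control 2, 0.22 in Meis1-CKO 1 and -0.39 in Meis1-CKO 2, S100a9 read 4.91 in control 1, 5.19 in control 2, 5.59 in Meis1-CKO 1 and 5.61 in Meis1-CKO 2, and Anxa1, an annexin found in envelopes, read 3.33 in control 1, 2.52 in control 2, 3.38 in Meis1-CKO 1 and 3.89 in Meis1-CKO 2. These 3 were higher on both Meis1-CKO arrays than on both controls. Of the 20 tested, 3 lay higher in Meis1-CKO without overlap and 1 lower, against 11.1% and 14.4% of all features. S100a9 is also abundant in myeloid cells, whose markers had medians of -0.75 on Meis1-CKO 1 and 1.95 on Meis1-CKO 2. The part of such cells in its level was not tested. Dsg1a, a desmosomal cadherin gene, read 2.22 in control 1, 2.16 in control 2, 2.25 in Meis1-CKO 1 and 0.55 in Meis1-CKO 2, with 3 arrays alike and Meis1-CKO 2 low.

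Of 31 barrier lipid and protease genes, 21 were tested and none passed, with a median difference of 0.01 (0.30 on slide 1 and -0.23 on slide 2). Of the 21, 2 lay lower in Meis1-CKO without overlap and 2 higher, against 14.4% and 11.1% of all features. Smpd1, the acid sphingomyelinase gene, read 1.65 in control 1, 1.32 in control 2, 1.02 in Meis1-CKO 1 and 0.72 in Meis1-CKO 2. Both Meis1-CKO arrays lay below both controls. St14, the matriptase gene, read 1.45 in control 1, 1.92 in control 2, 1.40 in Meis1-CKO 1 and 0.71 in Meis1-CKO 2, lower in Meis1-CKO without overlap, and Klk8, a further kallikrein gene, read -3.41 in control 1, -3.12 in control 2, -3.03 in Meis1-CKO 1 and -2.31 in Meis1-CKO 2, higher without overlap but above background on 1 control array.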

How the data were processed

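RNA from 4 sorted TEC pools (10 ng each) was amplified to cDNA, per the labels' protocols, and hybridised to Agilent single-colour arrays. Per the file headers, the deposited signals are linear spot intensities from Agilent Feature Extraction 9.5.3.1, background-subtracted and detrended within each array, with low values replaced by surrogates and no scaling between arrays. The authors also deposited a table of log2 values. Set against the scanner values over 20822 probes, its slide 1 difference had a slope and a correlation of 1, and each probe was centred on its median. Its column medians were 0.04, 0.09, -0.06 and -0.12 (control 1 and 2, Meis1-CKO 1 and 2), so scale, centring and direction were settled.

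Levels are log2 intensities minus the 75th percentile over non-control spots of each array. Of 45018 spots, 1639 control spots and 63 to 78 outlier spots per array were left out, and spots of a probe were averaged. The brightest probe stood for its gene in the tests; 14115 of the 16812 features had a symbol, updated by RefSeq accession for 26690 probes through a GRCm38.p6 table. Descriptive shares use the 16803 features measured on all 4 arrays. Probe coordinates are on mm9, as in the array files, and no exon or UTR is assigned to them.

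The genotypes were compared with limma 3.58.1 (lmFit, eBayes; R 4.3.3) on 4 arrays without a block, Benjamini-Hochberg adjusted at 0.05. Precision is limited by the number of arrays (2 residual degrees of freedom, 5.52 once moderated). Arrays that share a number deviated from their genotype's mean with a correlation of 0.13 across features. Every member is named, and from each of the 4 pathway lists the 4 genes of smallest unadjusted p together with genes chosen by name. The result of 1 gene that this rule names is not reported here. Members and lists were chosen with earlier results of these data known. Alternatives were normexp, quantile and median scaling, the deposited table, other filters, the mean of a gene's probes, a replicate block and each array left out. Promoter windows come from RefSeq, GRCm38.p6.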

Additional observations from a re-analysis of the deposited data

How the results depend on the processing

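No feature passed under any alternative except when Meis1-CKO 1 was left out, where 317 passed (200 higher, 117 lower), 1 of them a described gene (Ivl), so leaving out 1 array gave 0 to 317 features and 0 to 1 of the described genes. The count of separated genes at least 2-fold higher (1) was 0 under normexp, 0 with probes above background on all 4 arrays and 3 with no filter, and 1 to 8 with 1 array left out. The count at least 2-fold lower (1) was 0 under normexp and 1 to 20 with 1 array left out, 20 without Meis1-CKO 1. Of all features, 0.244% were so lower under normexp and 4.59% to 16.2% with 1 array left out. The 16.2% was also the value without Meis1-CKO 1. The count of genes with both slide 1 arrays above both slide 2 arrays and slide means at least 2-fold apart (13) was 5 under normexp and 12 to 16 otherwise. The shares of all features were 1.42% under normexp and 6.27% to 7.64% otherwise. The alternatives for the SPRR2 and slide counts were added after seeing the data: 8 SPRR2 genes were lower within both slides under every scaling and filter tried, and 19 to 27 genes were higher on slide 1 and lower on slide 2.

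Labels do not say what a replicate number marks, and with the replicate block 0 features passed, the median difference was -0.24 and no call changed. Median scaling moved the median of all features on slide 1 from 0.00 to -0.13 and on slide 2 from -0.12 to 0.04. Directions turned to 0.0446 for Calml3 (normexp), 0.0041 for Crct1 (quantile), 0.0034 for Lce1b (median scaling), and 0.0279 for Calm4 and 0.0916 for Lce3c (mean of probes). Leaving out 1 array turned the direction of 27 genes, whose differences ran as follows: Alox12b -1.36 to 0.40, Aloxe3 -1.68 to 0.98, Calm4 -0.78 to 0.45, Calml3 -0.67 to 0.61, Casp14 -1.30 to 0.78, Crct1 -0.998 to 0.95, Dmkn -0.0798 to 1.006, Flg -1.76 to 1.16, Hrnr -0.92 to 0.83, Ivl -3.09 to 1.03, Klk5 -0.58 to 1.99, Klk7 -1.48 to 0.38, Krtdap -1.11 to 0.74, Lce1a1 -2.92 to 0.53, Lce1b -0.24 to 0.21, Lce1h -0.17 to 1.07, Lce3c -0.77 to 0.50, Lor -0.20 to 0.36, Lypd3 -1.07 to 0.68, Rptn -0.33 to 1.02, Sbsn -0.0197 to 1.26, Spink5 -0.15 to 1.12, Sprr1a -1.28 to 0.11, Sprr1b -1.69 to 0.62, Sprr2a -2.26 to 0.22, Tgm1 -0.98 to 0.51, Tgm3 -1.34 to 0.57. The cause was not tested. Where a probe was not well above background, as for Ivl and Lce1a1 in Meis1-CKO 2, its difference rests in part on that dim signal. Whether a surrogate replaced the signal is not given here.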
